A study of Mus musculus with 5 samples.

Results

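The transcripts of 10 transcription factors that set or keep T-cell identity, Myc, Notch1, Ikzf1, Gata3, Tcf7, Lef1, Bcl11b, Runx1, Ets1 and Satb1, were examined in Surface-seq libraries of EL4 cells, a mouse T lymphoma line. The genes were taken by name from the 55385 genes of each count table, and all 10 were found. Surface-seq starts from membrane-coated nanoparticles (MCNPs), polymer cores wrapped in the purified plasma membrane of the cells with its outer face turned outward, so that RNA held by the membrane is sequenced in place of whole-cell RNA. In the 3 libraries of variation A (A1, A2 and A3), RNA was extracted from the MCNPs with phenol-chloroform before any adaptor was added, which takes up membrane-associated RNA from either face. In the 2 libraries of variation B (B1 and B2), the 3′ adaptor was ligated directly to RNA exposed on the intact MCNPs, which was meant to select the outward-facing RNA. No untreated, whole-cell or mock library was analysed here, and all 5 libraries come from the same line, so the comparison is between the 2 library methods. Values are given in the order A1, A2, A3 for variation A and B1, B2 for variation B. The labels do not say that the replicates came from separate cultures, so p-values measure the spread between these libraries, which may be technical.

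Library totals were 2301017, 4502174 and 1187117 counts for A1, A2 and A3 and 21862003 and 22980172 for B1 and B2. A count of 0, which allows up to 3 counts, therefore allowed up to 1.30, 0.666 and 2.53 CPM in variation A, where CPM is the count scaled to a total of 1000000, but only 0.137 and 0.131 CPM in variation B. Ribosomal RNA genes took 50.0% to 54.0% of the counts in variation A and 23.0% and 24.2% in variation B, and protein-coding genes took 22.0% to 39.4% against 63.6% and 64.6%. A1 stood apart from the other variation A libraries, with 0.847% of its counts on small nuclear RNA genes against 12.1% in A2 and 13.1% in A3, and variation B had 1.18% and 0.632%. Of 14 T-cell marker genes, 11 had at least 10 counts in every library, and their list summed to 599.8 to 805 CPM in variation A and to 2405 and 2216 CPM in variation B, with 2 of the 13 tested called higher and 1 lower after scaling, beside 11.0% higher and 12.4% lower over all genes tested. Of 20 markers of B cells, myeloid, erythroid, stromal, epithelial and endothelial cells, 15 stayed under 10 counts in all libraries and 6 were at 0 throughout (Ms4a1, Ebf1, Adgre1 and 3 globin genes), and the list summed to 14.3 to 30.1 CPM, with Pecam1 the most counted. Of its 2 genes tested, the myeloid marker Lyz2 was called higher in variation B, with 0 counts in each variation A library and 73 and 133 in B1 and B2, and it entered the test only through variation B.

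In T-cell development, the receptor Notch1 is cleaved on contact with a ligand and its intracellular part acts with Rbpj to switch on the T-lineage program, in which Tcf7 and Gata3 are early factors and Bcl11b seals commitment. Ikzf1, Runx1, Ets1, Lef1 and Satb1 shape the chromatin and the receptor loci of thymocytes, and Myc drives their growth and division. The proteins of all 10 genes act in the nucleus, and what is measured here is their RNA on the membrane preparations.

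Of the 10 transcripts, 6 (Myc, Ikzf1, Gata3, Tcf7, Bcl11b and Ets1) had at least 10 counts in every library, and Runx1 had 9 to 786. Notch1, Lef1 and Satb1 were rare. Counts were scaled by the trimmed mean of M values (TMM), which sets an effective library size so that most genes show no net shift between libraries. CPM below is on that size unless stated, but levels per kilobase of exon are on library totals throughout. The groups of libraries did not overlap for 6 transcripts. Both variation B libraries lay above all variation A libraries for 2 of the 10, Myc and Ets1, as they did for 31.2% of the 10287 genes tested, and below them for 4, Gata3, Tcf7, Lef1 and Satb1, as they did for 26.7% of the genes tested.

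**Figure D1:**
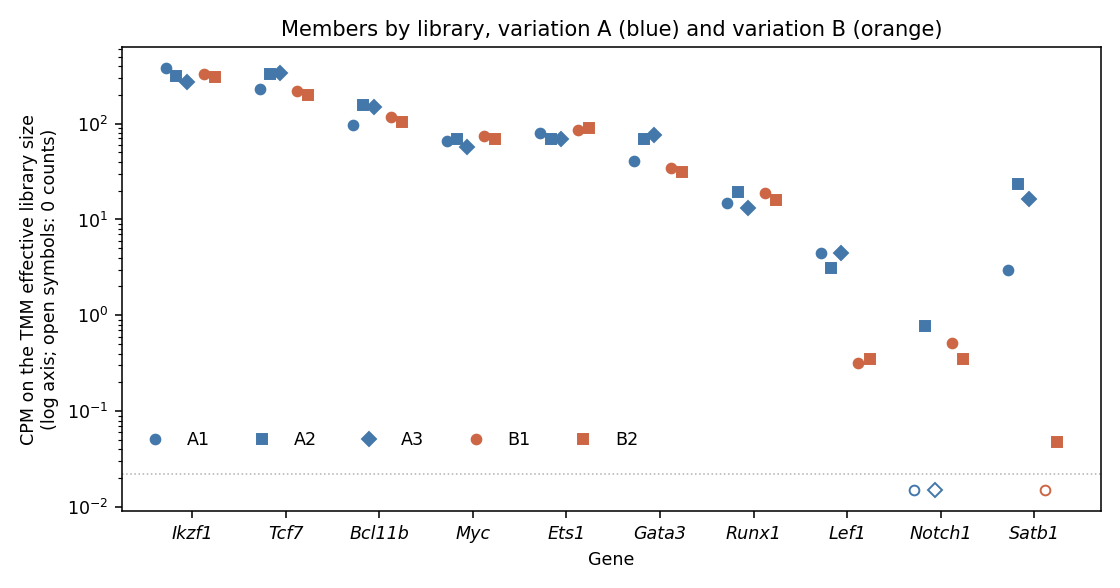
The plot gives the CPM on the TMM effective library size, on a log axis, of each of the 10 transcripts in each library, with variation A in blue, variation B in orange and open symbols for a count of 0. Ikzf1, Tcf7, Bcl11b, Myc, Ets1 and Gata3 lie between 31.6 and 376 CPM in all 5 libraries, while Lef1 and Satb1 drop from variation A to variation B.

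Between variations, 0 of the 9 transcripts tested were called higher in variation B and 2, Lef1 and Satb1, were called lower, where a call needs more than a 2-fold change and an adjusted p below 0.05 (edgeR's quasi-likelihood test, p-values adjusted by Benjamini-Hochberg over the whole table). Across all genes tested, 11.0% were called higher and 12.4% lower. At an unadjusted p under 0.05, 0 members were higher and 3 lower by edgeR, with Gata3 as the additional gene, where 19.7% of all genes tested were higher and 20.3% lower at that limit. DESeq2 also called 0 higher. The median log2 fold change of the 9 tested members was -0.30, against 0.05 for all genes tested. Notch1 had too few counts to pass the filter of this test, and Lef1 and Satb1 passed it only through their variation A libraries, where they were high. Because Lef1 and Satb1 are among the 9 members, no shift of the set is read from their median. The filter asks for at least 2.22 CPM on library totals in 2 libraries. The scaling sets the direction of Ikzf1, Gata3, Tcf7 and Bcl11b, which lay higher in variation B on library totals. On these totals the median of all genes rose to 1.50 on the log2 scale, 8 of the 10 transcripts lay higher in both variation B libraries than in all variation A libraries, as did 75.0% of the genes tested, and 6 were called higher, where 55.0% of all genes tested were. Lef1 and Satb1 stayed lower.

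**Figure D2:**
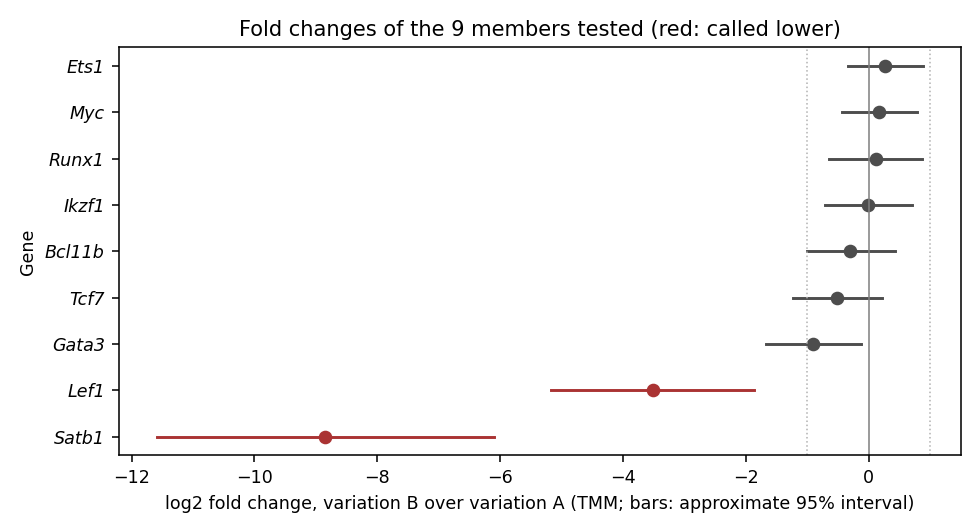
The plot gives the log2 fold change of variation B over variation A for the 9 transcripts tested, with bars for the approximate 95% interval and dotted lines at a fold change of 2 in each direction. Lef1 (-3.52) and Satb1 (-8.85), drawn in red, were called lower, and the bars of the other transcripts except Gata3 span 0.

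Notch1, the receptor at the head of the program, was almost absent. It lies at chr2:26457903-26516663 on the minus strand (GRCm38, as all positions here) and had 0, 2 and 0 counts in variation A and 21 and 15 in variation B. On library totals these are 0.444 CPM in A2 and 0.961 and 0.653 CPM in B1 and B2. The counts of 0 in A1 and A3 allow more than was seen in either variation B library, so no difference was detectable at this depth, and the ratio of pooled CPM, variation A over variation B, was 0.312 with a 95% interval for counting error of 0.0364 to 1.21. In the fits that kept Notch1, its log2 fold change was 0.59 by edgeR without a filter (adjusted p = 0.834) and 0.33 by DESeq2 (adjusted p = 0.948), and it was not called. Its paralog Notch2, chosen for mention after its values were seen, had 280, 470 and 100 counts in variation A and 3413 and 3731 in variation B, and the ratio of Notch1 to Notch2 counts was at most 0.00615 in any library. Notch2 had a log2 fold change of -0.87 ± 0.29 (SE), with an adjusted p of 0.0595 by edgeR's quasi-likelihood test.

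Of a list of 30 Notch pathway genes (ligands, proteases, the nuclear complex, targets and modifiers), 20 were tested, 6 were called higher in variation B, 0 were called lower, and 14 were neither, with a median log2 fold change of 0.37, beside 11.0% higher and 12.4% lower and a median of 0.05 over all genes tested. Maml2, a coactivator of the Notch nuclear complex, had 4, 8 and 1 counts in variation A and 815 and 1189 in variation B, and was called higher at a fitted log2 fold change of 3.31 ± 0.43 (SE, adjusted p = 0.00268, edgeR), though it passed the filter only through variation B, where it was high. Rbpj, the DNA-binding partner of cleaved Notch, had 25.2, 13.2 and 11.8 CPM in variation A and 55.1 and 87.7 CPM in variation B, and rose by 2.05 ± 0.40 (adjusted p = 0.0106, edgeR). Adam10, the protease that makes the ligand-dependent cut, had the highest level of the list per kilobase (kb) of exon, a mean of 24.6 CPM per kb on library totals, and rose by 1.20 ± 0.38 (adjusted p = 0.0486, edgeR).

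Myc, a basic helix-loop-helix factor that pairs with Max and is a known target of Notch1 in T lymphoma, was well counted. The gene lies at chr15:61985391-61990374 on the plus strand and had 132, 177 and 39 counts in variation A and 3084 and 2943 in variation B. After scaling these are 65.2, 68.6 and 57.5 CPM in variation A and 75.0 and 69.4 CPM in variation B. All variation B values lie above those of variation A, by a margin smaller than the spread within variation A, and the log2 fold change was 0.17 ± 0.27 (SE), with a 95% interval of -0.44 to 0.78 and an adjusted p of 0.656 by edgeR's quasi-likelihood test. Mycn was at 0 in all 5 libraries and Mycl had a single count in B2. Of 13 genes of the Myc and Max network, 11 were tested, and 2 were called higher and 0 lower, with a median log2 fold change of 0.17, against the shares of 11.0% and 12.4% over all genes tested. Those called were Mga, a Max-binding repressor, at 2.19 ± 0.39 (adjusted p = 0.00838, edgeR), and Mxi1, a Max partner that opposes Myc, at 1.28 ± 0.36 (adjusted p = 0.0357, edgeR). The best-counted gene of the list per kb of exon was Mycbp2, a ubiquitin ligase, with a mean of 11.7 CPM per kb and a log2 fold change of 0.74 ± 0.34 that was not called.

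Tcf7 and Lef1, the T-cell members of the high mobility group box family that bind β-catenin, differed in level and in pattern. Tcf7 (chr11:52252371-52283331, minus strand) had 470, 855 and 229 counts in variation A and 9081 and 8502 in variation B, and it was the best-counted member per kb of exon in both variations. After scaling it had 232, 331 and 338 CPM in variation A and 221 and 200.4 CPM in variation B, where A1 lies close to variation B. Its log2 fold change was -0.51 ± 0.32 (SE), with a 95% interval of -1.24 to 0.22 and an adjusted p of 0.259 by edgeR's quasi-likelihood test.

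Lef1 (chr3:131110471-131224356, plus strand) had 9, 8 and 3 counts in variation A and 13 and 15 in variation B, which are the far deeper libraries. On the TMM scale these are 4.45, 3.10 and 4.43 CPM in variation A and 0.316 and 0.354 CPM in variation B. The groups are far apart on this scale, but each variation A value rests on fewer than 10 counts. The log2 fold change was -3.52 ± 0.72 (SE), with a 95% interval of -5.17 to -1.86 and an adjusted p of 0.0130, and Lef1 was called lower by edgeR's quasi-likelihood test. On library totals the pooled ratio, variation A over variation B, was 4.01 from 20 and 28 counts, with a 95% interval of 2.14 to 7.37 for counting error only. Leaving out any of the 5 libraries ended the call, with adjusted p of 0.053 to 0.108 and log2 fold changes of -3.64 to -3.30, while the other 10 alternatives kept it. As Lef1 passed the filter only through variation A, these repeats are not further evidence for the difference. Without the filter the log2 fold change was -3.32 (adjusted p = 0.0415, edgeR). Exons of Lef1 share 13.7% of their length with Gm43352, which is on the opposite strand and had 0, 2, 0, 20 and 0 counts in A1, A2, A3, B1 and B2, and counting ignored strand.

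The ratio of Lef1 to Tcf7 counts within a library was 0.0191, 0.00936 and 0.0131 in variation A and 0.00143 and 0.00176 in variation B. These ratios need no scaling between libraries, and both variation B values lie below all variation A values. Of 17 genes of the TCF, LEF and β-catenin list, 13 were tested, and 2 were called higher and 2 lower, near the 11.0% and 12.4% of all genes tested, with a median log2 fold change of 0.18. Ctnnb1, which encodes β-catenin and was the best-counted gene of the list per kb (mean 63.9 CPM per kb), rose by 1.26 ± 0.32 (adjusted p = 0.0259, edgeR), and Apc, a scaffold of the complex that degrades β-catenin, rose by 1.12 ± 0.34 (adjusted p = 0.0429, edgeR). Tcf7l1, another member of the same family, had 6, 7 and 4 counts in variation A and 2 and 3 in variation B, and was called lower with a fitted log2 fold change of -5.73 ± 0.92 (adjusted p = 0.00589, edgeR), though it passed the filter only through variation A, where it was high. Bcl9l, a β-catenin cofactor, had 25.2, 83.3 and 67.9 CPM in variation A and 10.7 and 11.0 CPM in variation B, and fell by 2.43 on the log2 scale (SE 0.50, adjusted p = 0.0129, edgeR).

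Because relatives such as Tcf7 and Lef1 share coding sequence, and reads that aligned to several places were not counted, the longest stretch that a member shares with a relative was looked for in the GENCODE M21 coding sequences. Over 17 pairs of a member and a relative, the longest exact shared run was 12 to 38 bases, with a median of 19. The runs are printed for 3 of the pairs whose counts are set side by side in the text. Each is shown in capitals between 15 coding bases on either side, in the sense of the gene, and a read that lies wholly within the capitals fits either gene.
Tcf7: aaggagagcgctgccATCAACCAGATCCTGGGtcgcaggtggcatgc
Lef1: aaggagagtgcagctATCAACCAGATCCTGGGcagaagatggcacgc
Runx1: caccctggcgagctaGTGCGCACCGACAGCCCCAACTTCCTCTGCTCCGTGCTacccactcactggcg
Runx3: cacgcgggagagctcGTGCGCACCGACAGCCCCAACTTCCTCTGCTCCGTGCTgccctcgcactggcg
Notch1: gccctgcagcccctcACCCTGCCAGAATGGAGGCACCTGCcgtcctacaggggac
Notch2: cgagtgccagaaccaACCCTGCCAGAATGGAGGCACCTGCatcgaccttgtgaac

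The 17 bases shared by Tcf7 and Lef1 lie in exon 8 of each, at chr11:52256956-52256972 on the minus strand and chr3:131194764-131194780 on the plus strand. Runx1 and Runx3 share 38 bases, the longest run of all pairs, in exon 3 at chr16:92695530-92695567 on the minus strand and in exon 2 at chr4:135152973-135153010 on the plus strand. Notch1 and Notch2 share 25 bases, in exon 4 at chr2:26484311-26484335 on the minus strand and in exon 22 at chr3:98126171-98126195 on the plus strand. Against exon lengths of 3019 to 14232 bases for these members, the runs are short stretches of each gene. Read lengths were not analysed here. Exons of Myc, Ikzf1, Tcf7, Bcl11b and Ets1 overlap no other gene. Those of Notch1, Gata3 and Runx1 share 10.4%, 5.83% and 0.881% of their length with genes that had at most 16 counts in any library. Lef1, at 13.7%, has the largest overlap of the members. Reads over several genes were left out, so the counts of overlapping genes cannot show how many reads of a member were lost.

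Ikzf1, Gata3 and Bcl11b are zinc finger factors, and in every library each lay at or above the 90.6 percentile of protein-coding genes by level per kb. Ikzf1 encodes Ikaros, a founder of the lymphoid lineages that recruits the NuRD chromatin complex. It lies at chr11:11685003-11772926 on the plus strand and had 761, 807 and 183 counts in variation A and 13680 and 12939 in variation B. After scaling these are 376, 313 and 270.0 CPM in variation A and 333 and 305 CPM in variation B. The groups overlap, and the log2 fold change was -0.01 ± 0.31 (SE), with a 95% interval of -0.71 to 0.70 and an adjusted p of 0.992 by edgeR's quasi-likelihood test. Its sign turned under several settings (-0.18 to 1.42 over 15 alternatives).

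Gata3, which steers early thymocytes and later helper T cells, lies at chr2:9857078-9890034 on the minus strand and had 83, 180 and 51 counts in variation A and 1414 and 1342 in variation B. After scaling these are 41.0, 69.8 and 75.2 CPM in variation A and 34.4 and 31.6 CPM in variation B. All variation B values lie below those of variation A, and A1 is much nearer to variation B than to A2 and A3. The log2 fold change was -0.90 ± 0.34 (SE), with a 95% interval of -1.67 to -0.13 and an adjusted p of 0.0847 by edgeR's quasi-likelihood test, so Gata3 was not called. Without A1, the library that stood apart in small nuclear RNA, Gata3 was called lower (log2 fold change -1.0, adjusted p = 0.000954, edgeR). Calls over all genes rose as well, from 1135 higher and 1276 lower of 10287 tested to 2526 and 1821 of 12127. Over the 15 alternatives the adjusted p of Gata3 ran from 0.000954 to 0.768, and on library totals its direction turned, to 0.64.

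Bcl11b, a factor required for commitment to the T lineage, lies at chr12:107910403-108003602 on the minus strand and had 198, 406 and 101 counts in variation A and 4779 and 4367 in variation B. After scaling these are 97.8, 157 and 149 CPM in variation A and 116 and 103 CPM in variation B. The variation B values lie between A1 and the other variation A libraries, and the log2 fold change was -0.30 ± 0.32 (SE), with a 95% interval of -1.01 to 0.42 and an adjusted p of 0.509 by edgeR's quasi-likelihood test. Its relative Bcl11a, a factor of B-cell development, had 1, 10 and 3 counts in variation A and 0 in both variation B libraries and was not tested.

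Among 19 genes of the Ikaros family and the NuRD and Sin3 complexes, 18 were tested, 0 were called higher and 2 lower, where 11.0% and 12.4% of all genes tested were, with a median log2 fold change of 0.21. The helicase Chd4 was the best counted per kb, with a mean of 71.2 CPM per kb, and had a log2 fold change of 0.79 ± 0.31 (adjusted p = 0.0947, edgeR). The genes called lower were Rbbp4, a histone-binding subunit, at -1.72 ± 0.46 (adjusted p = 0.0302, edgeR), and Gatad2a, a scaffold of NuRD, at -1.20 ± 0.36 (adjusted p = 0.0422, edgeR). Of 6 relatives and cofactors of GATA and BCL11 factors, 3 were tested and 1 was called lower, against 12.4% over all genes tested. This was Zfpm1, a cofactor of GATA proteins, which had 70.1, 93.8 and 109 CPM in variation A and 19.2 and 30.8 CPM in variation B and a log2 fold change of -1.85 ± 0.35 (adjusted p = 0.0101, edgeR). Gata1 and Gata2 had at most 3 counts in any library.

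Runx1 and Ets1, which bind neighbouring sites in the enhancers of the T-cell receptor genes, showed no call in either direction. Runx1 lies at chr16:92601466-92826149 on the minus strand and had 30, 50 and 9 counts in variation A and 786 and 674 in variation B. After scaling these are 14.8, 19.4 and 13.3 CPM in variation A and 19.1 and 15.9 CPM in variation B. The groups overlap, and the log2 fold change was 0.11 ± 0.33 (SE), with a 95% interval of -0.64 to 0.86 and an adjusted p of 0.821 by edgeR's quasi-likelihood test. Removing a trend of counts with exon length turned its sign, to -0.39.

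Ets1 lies at chr9:32636221-32757820 on the plus strand and had 162, 177 and 47 counts in variation A and 3542 and 3817 in variation B. After scaling these are 80.0, 68.6 and 69.3 CPM in variation A and 86.1 and 90.0 CPM in variation B. Both variation B values lie above all variation A values, with A1 the nearest of these, and the log2 fold change was 0.27 ± 0.26 (SE), with a 95% interval of -0.33 to 0.88 and an adjusted p of 0.462 by edgeR's quasi-likelihood test.

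The relatives of Runx1 and Ets1 named next were chosen after their values were seen. Runx3, which acts in killer T cells, had 14, 50 and 11 counts in variation A and 228 and 262 in variation B, with a log2 fold change of -1.26 ± 0.47 (adjusted p = 0.0846, edgeR). The ratio of Runx1 to Runx3 counts was 2.14, 1.00 and 0.818 in variation A and 3.45 and 2.57 in variation B, so both variation B libraries lie above A1, the highest of variation A. Ets2 had 43, 58 and 9 counts in variation A and 1236 and 1360 in variation B, and the ratio of Ets1 to Ets2 counts was 3.05 to 5.22 in variation A and 2.87 and 2.81 in variation B.

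Of 19 RUNX, CBF and ETS family genes, 18 were tested, and 2 were called higher, near the 11.0% of all genes tested, and 0 lower, where 12.4% of all genes were, with a median log2 fold change of 0.29. Erg, an ETS factor of blood stem cells and endothelium, had 0 counts in all 3 variation A libraries and 171 and 189 in B1 and B2. Ehf, an epithelial ETS factor, had 8, 5 and 0 counts in variation A and 637 and 768 in variation B, a fitted log2 fold change of 2.81 ± 0.57 (adjusted p = 0.0126, edgeR). Erg and Ehf passed the filter only through variation B, where they were high. The epithelial marker Epcam had at most 2 counts in any library. The endothelial marker Pecam1 had 17.8 to 24.2 CPM in variation A and 8.63 and 12.7 CPM in variation B. The myeloid marker Lyz2, like Erg, had 0 counts in variation A, with 73 and 133 in B1 and B2. The source of the Erg and Ehf counts was not tested. Cbfb, the shared partner of RUNX proteins, was the best counted of the list per kb, with a mean of 19.6 CPM per kb and a log2 fold change of 0.63 ± 0.36 (adjusted p = 0.221, edgeR).

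Satb1, a CUT and homeobox factor that folds chromatin in thymocytes, showed the widest difference of the 9 transcripts tested. It lies at chr17:51736187-51833290 on the minus strand and had 6, 61 and 11 counts in variation A but 0 and 2 counts in the deeper libraries B1 and B2. On library totals these are 2.61, 13.5 and 9.27 CPM in variation A, with 95% Poisson intervals of 0.957 to 5.68, 10.4 to 17.4 and 4.63 to 16.6 CPM. In B2 the 2 counts are 0.087 CPM, with an interval of 0.0105 to 0.314 CPM, and the interval for the 0 counts of B1 is 0 to 0.169 CPM. No interval of variation B reaches the lowest of variation A, where A1 lies well below A2 and A3.

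The pooled ratio of Satb1 CPM, variation A over variation B, was 219 from 78 and 2 counts, with a 95% interval of 58.6 to 1839 for counting error only. A2 gave 61 of the 78 counts and B2 gave the 2, so the size of this ratio leans on single libraries. The fitted log2 fold change was -8.85 ± 1.20 (SE), with a 95% interval of -11.59 to -6.10 and an adjusted p of 0.0032 by edgeR's quasi-likelihood test, a size that depends on the prior count given to the near-empty variation B libraries. Since Satb1 passed the filter only through variation A, where it was high, the call and its repeats describe these counts and are not further evidence for the difference. Log2 fold changes ran from -10.38 to -7.26 and adjusted p from 1.78e-13 to 0.027 over the 15 alternatives, and with every gene of at least 1 count kept in the fit they were -8.63 and 0.000135. A1 was the lowest of variation A both in Satb1 and in small nuclear RNA, whose part in this result was not tested, and without A1 the log2 fold change was -9.33 (adjusted p = 1.85e-06). Only 1.49% of its exon length is shared with other genes, Gm36931 and Gm6934, which were at 0 in all libraries.

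**Figure D3:**
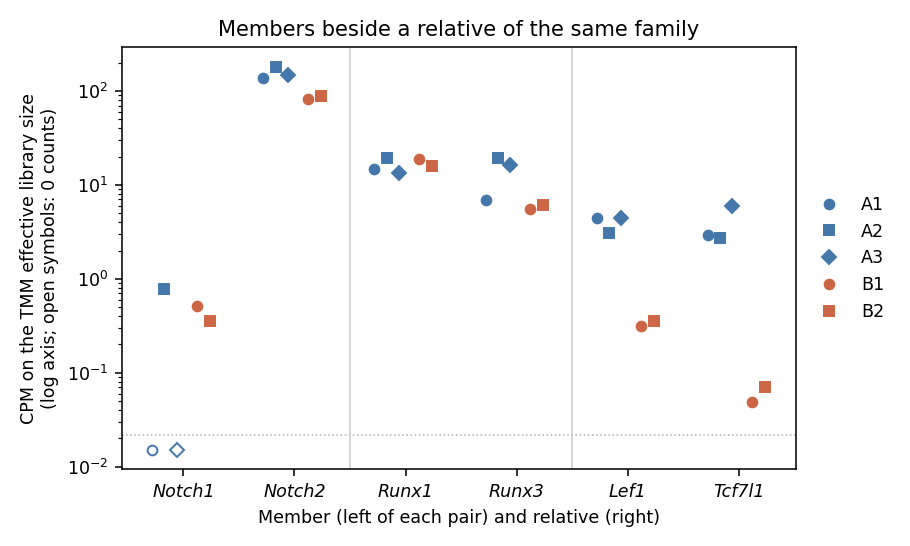
The plot gives the CPM on the TMM effective library size, on a log axis, of 3 members, each to the left of a relative of its family, in each library (blue, variation A, and orange, variation B, with open symbols for a count of 0). Notch1 lies far below Notch2 in every library, Runx1 overlaps between variations, and Lef1 and Tcf7l1 are both lower in variation B.

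Within variation A the order of levels, as mean CPM on library totals per kb of exon, was Tcf7 (64.8 ± 2.51), Ikzf1 (38.3 ± 16.5), Myc (15.9 ± 4.68), Bcl11b (10.7 ± 0.334), Gata3 (9.97 ± 0.869), Ets1 (5.87 ± 2.11), Runx1 (0.879 ± 0.230), Satb1 (0.445 ± 0.290), Lef1 (0.312 ± 0.123) and Notch1 (0.0104 ± 0.0180) (SD, n = 3). The ranges of neighbours overlapped between Bcl11b and Gata3, between Runx1 and Satb1 and between Satb1 and Lef1, so these were not separated beyond their spread. In variation B the order was Tcf7 (130.1 ± 10.6), Ikzf1 (103 ± 7.67), Myc (49.5 ± 3.38), Bcl11b (25.2 ± 2.49), Ets1 (19.4 ± 0.341), Gata3 (15.5 ± 1.12), Runx1 (2.71 ± 0.389), Lef1 (0.0710 ± 0.00467), Notch1 (0.0567 ± 0.0153) and Satb1 (0.00229 ± 0.00323) (SD, n = 2), and no neighbours overlapped. The upper end was thus in the same order in both variations. Ets1 and Gata3 changed places, and Satb1 went from the eighth place to the last. Tcf7 lay at the 99.5 to 99.7 percentile of protein-coding genes in every library, whereas Satb1 lay at the 51.4, 67.0 and 64.0 percentile in variation A and at 19.0 and 42.3 in variation B.

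Taken as a sum, the 10 transcripts held 0.0804%, 0.0605% and 0.0567% of all counts in variation A and 0.166% and 0.151% in variation B. The means were 0.0659% ± 0.0128 (SD, n = 3) and 0.159% ± 0.0112 (SD, n = 2), a difference of 0.0927 percentage points (exact permutation test over libraries, two-sided, p = 0.1, the smallest that 3 against 2 libraries can give). As a share of protein-coding counts they held 0.204%, 0.267% and 0.258% in variation A and 0.262% and 0.233% in variation B, where the groups overlap and the means of 0.243% and 0.247% differ by 0.00428 percentage points (p = 0.9 in the same exact permutation test). In these bulk libraries fewer cells carrying a transcript and less of it per cell cannot be told apart.

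In the shares of Ikzf1, Tcf7 and Gata3 in the sum, A1 lay with variation B, but not in those of Lef1 and Runx1. Ikzf1 made up 41.1% of the 10 transcripts' counts in A1, 29.6% and 27.2% in A2 and A3, and 37.6% and 37.4% in variation B. Tcf7 made up 25.4% in A1, 31.4% and 34.0% in A2 and A3, and 24.9% and 24.6% in variation B. The ratio of Tcf7 to Ikzf1 counts was 0.618 in A1, 1.06 and 1.25 in A2 and A3, and 0.664 and 0.657 in variation B. The ratio of Gata3 to Ikzf1 counts was 0.109 in A1, 0.223 and 0.279 in A2 and A3, and 0.103 and 0.104 in variation B. These ratios compare transcripts within a library and do not depend on the scaling, and in each the A1 value lies beside variation B rather than beside its own replicates. The ratio of Myc to Ikzf1 counts, by contrast, was 0.173 in A1 and 0.213 to 0.227 in the other 4 libraries. Lef1 made up 0.486% in A1, 0.294% and 0.446% in A2 and A3, and 0.0357% and 0.0433% in variation B. Runx1 made up 1.62% in A1, 1.84% and 1.34% in A2 and A3, and 2.16% and 1.95% in variation B.

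**Figure D4:**
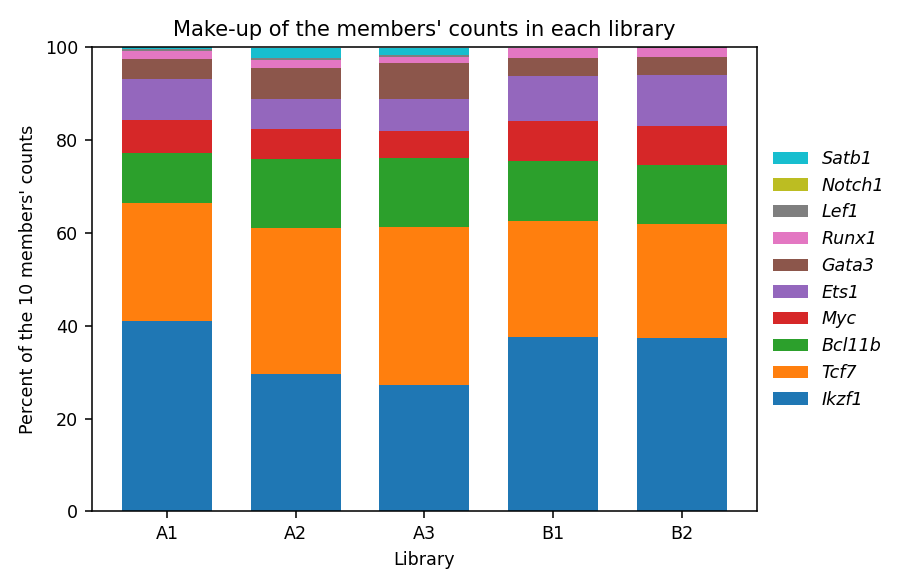
The stacked bars give the percent of the 10 transcripts' counts that each transcript holds in each library. Ikzf1 and Tcf7 are the tallest bands in every library, and the Gata3 band is 4.48% in A1, 6.61% and 7.58% in A2 and A3, and 3.88% in both variation B libraries.

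The E proteins, which cooperate with Notch1 early in the lineage, and the wider set of T-cell regulators were counted as further lists. Of 10 E protein and inhibitor genes, 6 were tested, 0 were called higher and 2 lower, beside the 12.4% called lower over all genes tested. Lyl1, a helix-loop-helix factor of blood progenitors, had 11, 45 and 7 counts in variation A and 54 and 18 in variation B, a log2 fold change of -3.69 ± 0.73 (adjusted p = 0.0117, edgeR), and passed the filter only through variation A. Tcf3, the best counted of the list per kb and the source of the main E proteins of thymocytes, had 36.1, 72.5 and 85.6 CPM in variation A and 25.7 and 25.4 CPM in variation B, a log2 fold change of -1.32 ± 0.39 (adjusted p = 0.0422, edgeR).

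Of 43 other T-cell regulators, 35 were tested, 1 was called higher and 6 lower, with a median log2 fold change of -0.17, beside the shares of 11.0% higher and 12.4% lower over all genes tested. Phf6, a chromatin reader that is often mutated in T-cell leukaemia, rose by 2.03 ± 0.49 (adjusted p = 0.0219, edgeR). Stat5a, which carries cytokine signals, had 38.5, 76.7 and 56.1 CPM in variation A and 10.8 and 8.30 CPM in variation B, and its log2 fold change was -2.59 ± 0.39 (adjusted p = 0.00459, edgeR). Nfatc2, the calcium-responsive factor, had 19.8 to 29.5 CPM in variation A and 8.61 and 7.71 CPM in variation B, with a log2 fold change of -1.51 ± 0.34 (adjusted p = 0.0175, edgeR). Zbtb7b, the factor of helper T-cell choice and the best counted of the list per kb, had 67.2 to 217 CPM in variation A and 190.3 and 102 CPM in variation B and a log2 fold change of 0.04 ± 0.49.

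Over all 8 lists, 124 of 157 genes were tested, and 13 were called higher and 13 lower, with a median log2 fold change of 0.12. These counts are near the shares over all genes tested, 11.0% higher and 12.4% lower, and 5 of the 26 called genes passed the filter through the libraries of a single variation only. Without A1 the lists had 25 higher and 23 lower, beside 2526 and 1821 of all 12127 genes tested. Without A2 they had 6 and 3, beside 420 and 442 of 12149, and without A3 7 and 5, beside 431 and 466 of 12064. On library totals they had 80 higher and 3 lower, beside 5654 and 302 of 10287. In each of these settings the list counts moved in the same direction as those of all genes. Among protein-coding genes with at least 10 counts in every library, 4456 in all, the genes whose profile over the 5 libraries lay closest to that of the members' sum were Timm29, Tex2 and Hcfc1, at root mean square distances of 0.025, 0.036 and 0.041 on the log2 scale. The profile of the sum itself was nearly level, at 914, 1055 and 993 CPM in variation A and 885 and 816 CPM in variation B.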

How the data were processed

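Surface-seq libraries of EL4 cells were sequenced, 3 of variation A and 2 of variation B, and titles and the study's methods gave the groups. Reads were trimmed (Trimmomatic 0.36), mapped to GRCm38 by STAR 2.7.3a and assigned to exons of GENCODE M24 genes by featureCounts 1.6.4, and the values the authors deposited are raw counts per gene and library. By the command in the file headers, strand was ignored, and reads with several alignments or over several genes were left out. The reads are counted without molecular identifiers, so Poisson intervals and floors of 3 counts cover counting error only. Symbols and exons were taken from GENCODE M21, which matched 55144 of 55385 genes. One partner gene is not reported here. Members and lists were chosen with earlier results of these data known.

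Genes passing edgeR's filterByExpr were fitted over all 5 libraries with TMM factors and no block (R 4.3.3, edgeR 4.0.16), and a call needed more than a 2-fold change and a Benjamini-Hochberg adjusted p below 0.05. Standard errors are approximate, from the quasi-likelihood F statistic. Code was tested on simulated counts. Sums over the members were compared by an exact permutation test (scipy 1.17.1). Of each partner list, the text names up to 2 called genes per direction with the largest change and the gene with the highest mean CPM per kb. The genes closest to the members' sum were the 3 with the smallest distance between centred log2 profiles. Alternatives were other scaling factors, DESeq2 1.42.0, no filter, the replicate block, a length trend, gene types left out, other call rules and leaving out each library.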

Additional observations from a re-analysis of the deposited data

How the results depend on the processing

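The 2 members called lower, Lef1 and Satb1, kept their calls under every alternative other than leaving out a library, where the count was 1 to 2 Satb1 was the gene that stayed, and Gata3 joined it without A1. Lef1 and Satb1 passed the filter on low counts only through variation A, so these repeats are no further evidence. The count called higher, 0, became 6 on library totals (Bcl11b, Ets1, Ikzf1, Myc, Runx1 and Tcf7) and stayed at 0 with any library left out. On library totals, log2 fold changes turned sign for Ikzf1 (1.42), Gata3 (0.64), Tcf7 (1.00) and Bcl11b (1.23). Near 0, Ikzf1 also turned with DESeq2 (0.05) and without a filter (0.20), and ranged from -0.08 to 0.24 with a library left out. Runx1 turned with upper-quartile factors (-0.01) and with a length trend removed, alone (-0.39) or with the replicate block (-0.39), and ranged from -0.03 to 0.36 with a library left out, and Ets1 turned with the length trend removed (-0.01). The 13 partner genes called higher became 80 on library totals, 7 with the replicate block, 7 with the length trend and the block, 4 when a fold change of 2 was itself tested, and 1 to 25 with a library left out. The 13 called lower became 3, 7, 9, 3 and 0 to 23 in the same order. The cause was not tested. Whether the replicate numbers pair the libraries was not settled. Deviations from the group means correlated at -0.104 for A1 and B1 and -0.034 for A2 and B2. The deviations of the 2 variation B libraries are mirror images (r = -1), so these correlations cannot decide it. The replicate block changed no member's call. Across all genes it gave 761 higher and 813 lower against 1135 and 1276, glmTreat 289 and 388, and library totals 5654 and 302. DESeq2, run on 25327 genes, gave 1135 and 1715. Without A1 the counts were 2526 and 1821, and without B2 161 and 137. Depth limits Notch1, Lef1 and Satb1, which rest on few counts.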
